A study of Mus musculus with 11 samples.

Results

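The comparison set cultures after 2 days in differentiation conditions against undifferentiated cells at day 0, across all genes of the deposited count table. It used 4 of the 11 libraries of the series, chosen by their labels alone: 2 of day 0 and 2 of day 2. The 2 libraries of day 1 served to ask which changes were already present a day earlier. All of these libraries came from E14, a mouse embryonic stem cell line of strain 129, wild type, grown as a monolayer. The labels give every library the same treatment, retinoic acid (RA) and SAG, applied over days 0 to 3. SAG is a small molecule agonist of Smoothened, the membrane protein that relays hedgehog signals. No culture kept to day 2 without RA and SAG was compared, so time in culture, the differentiation conditions and the agents cannot be told apart. The labels do not say if the replicates of each day are separate cultures. The p-values therefore measure the spread between these libraries, which may be technical, and all of them come from a single cell line.

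Embryonic stem cells hold themselves in an undifferentiated state through a network of transcription factors that includes Nanog, Esrrb and Pou5f1. RA enters the nucleus, binds RAR and RXR receptors that sit on response elements in DNA, and is known in the neural tube for switching on Hox genes and giving neural tissue a hindbrain or spinal cord character. Hedgehog signals relieve Smoothened of its inhibitor Ptch1 and act through the GLI factors. In the ventral neural tube they set the floor plate and the progenitor domains marked by Olig2 and the Nkx factors.

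Promoter sequences are shown for the genes of the RA, hedgehog and pluripotency lists that held the motif of their list, because these genes changed in opposite directions. Rarb, a receptor of RA, and Cyp26a1, an enzyme that breaks RA down, were higher at day 2, and Nanog was lower. The sequences are the 250 bases before each start site in RefSeq on GRCm38.p6, 5′ to 3′ on the strand of the gene. Capitals mark the RAR response element of the DR5 type (a direct repeat of the receptor half-site) in Rarb and Cyp26a1, and the composite octamer-Sox motif in Nanog. Rarb lies on the minus strand at chr14:16575477-16575726, Cyp26a1 on the plus strand at chr19:37697558-37697807 and Nanog on the plus strand at chr6:122707239-122707488.
Rarb: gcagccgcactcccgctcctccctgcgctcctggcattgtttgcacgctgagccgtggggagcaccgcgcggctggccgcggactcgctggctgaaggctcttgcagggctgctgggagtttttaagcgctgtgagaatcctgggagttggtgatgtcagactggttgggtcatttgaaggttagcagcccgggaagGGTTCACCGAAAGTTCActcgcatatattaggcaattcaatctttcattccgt
Cyp26a1: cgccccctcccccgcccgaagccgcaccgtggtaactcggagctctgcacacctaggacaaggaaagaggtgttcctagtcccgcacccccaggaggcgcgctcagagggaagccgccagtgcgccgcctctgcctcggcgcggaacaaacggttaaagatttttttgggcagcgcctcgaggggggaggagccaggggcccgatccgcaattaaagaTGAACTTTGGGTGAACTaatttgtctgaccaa
Nanog: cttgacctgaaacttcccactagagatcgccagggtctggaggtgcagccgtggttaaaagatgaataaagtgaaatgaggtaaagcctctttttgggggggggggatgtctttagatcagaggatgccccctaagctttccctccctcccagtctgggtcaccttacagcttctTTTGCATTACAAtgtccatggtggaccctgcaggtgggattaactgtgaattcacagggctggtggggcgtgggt
The element of Rarb began 53 bases before the start site, on the strand of the gene. That of Cyp26a1 began 32 bases before it and reads on the opposite strand. RefSeq gives Nanog a pair of start sites, and its motif began 75 bases before the one printed here and 151 before the other. Both strands of each window of 300 bases were searched, and matches of the motifs overlapped one another in 0 windows. The DR5 element was found in 32 of 32851 windows of all genes (0.0974%), and in 2 of the 45 listed RA and Hox genes that had a window. The octamer-Sox motif was in 12 windows (0.0365%), among them 1 of 29 listed pluripotency genes. The GLI motif TGGGTGGTC was in 83 windows (0.253%) and in 0 of the 33 listed hedgehog, floor plate and ventral genes with a window. A match describes letters in a window and not a bound site.

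Total counts of the day 0, day 1 and day 2 libraries ran from 26136331 to 30384599. Expression is given as CPM, counts scaled to library size with TMM factors, with the values of replicate 1 and replicate 2 of a day in that order, and 3 counts corresponded to 0.0941 to 0.127 CPM in these libraries. Log2 fold changes are day 2 over day 0 with their standard error (SE) and the adjusted p of edgeR's quasi-likelihood test (Benjamini-Hochberg over all genes tested), with n = 2 libraries a day. Folds come from the fitted log2 change. Genes with at most 3 counts in both libraries of either day are given without a fold. The libraries of day 0 differed from each other more than those of day 2: the SD of the log2 difference between replicates was 0.475 at day 0, 0.483 at day 1 and 0.21 at day 2. These differences followed GC content, by -0.55 per 10 percentage points of GC at day 0 and 0.622 at day 1. The day 2 to day 0 change had a median of -0.33 (log2) in the 10% of genes lowest in GC and 0.83 in the 10% highest. The part of GC content in single results was tested with a GC offset fitted to each library.

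Between days 0 and 2 the stem cell factors fell and neural, RA and hedgehog genes rose, in a comparison in which 6950 of 16810 genes tested were called (41.3%). Of these, 3573 were higher at day 2 (21.3%) and 3377 were lower (20.1%). The median called change was 1.64 on the log2 scale for higher genes and -1.19 for lower genes, and 1.62 and -1.19 with genes at 0 on 1 day set to their detection bound. All called genes had day 0 and day 2 libraries that did not overlap in CPM, as did 75.6% of all genes tested. With so many genes called, a list with a share of calls near 41.3% is no result about its members. The number of calls rested on each library of day 2: without day 2 replicate 1 it was 2246 higher and 1656 lower, and without day 2 replicate 2 it was 2213 and 1554. Without day 0 replicate 2 it was 2552 and 2172.

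**Figure D1:**
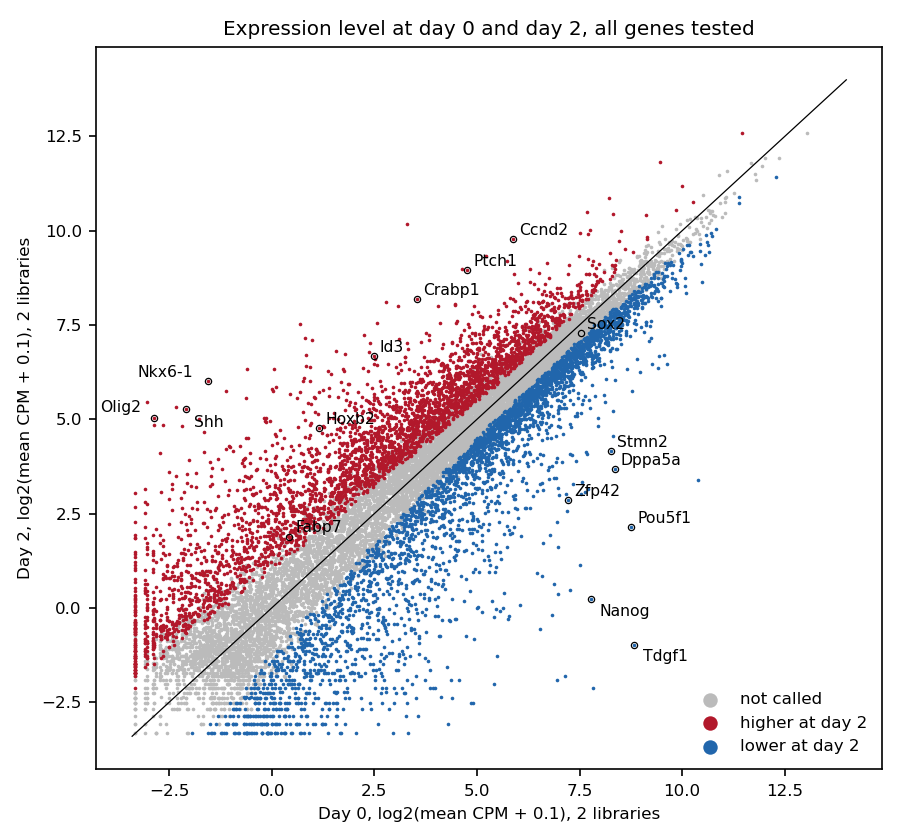
Mean CPM of every gene tested at day 0 (x axis) and day 2 (y axis), both as log2(CPM + 0.1). Called genes are coloured by direction, and selected genes are labelled. Nanog and Tdgf1 lie far below the diagonal, and Nkx6-1, Olig2 and Shh lie near 0 CPM at day 0 and far above the diagonal.

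The naive pluripotency list, the factors that mark the ground state of stem cells, fell as a whole: 15 of 15 tested genes were lower at day 2, with a median log2 change of -5.90 against 0.017 over all genes tested. Nanog, a homeobox factor of the stem cell network, read 180 and 260 CPM at day 0 and 1.27 and 0.879 at day 2, a log2 change of -7.69 (SE 0.36, adjusted p = 3.32e-06). Both day 2 libraries were below both day 0 libraries for every member, but all called genes and 75.6% of all genes tested were also free of overlap. Esrrb, an orphan nuclear receptor, went from 141 and 224 CPM to 2.21 and 1.98 (log2 change -6.46, SE 0.34, adjusted p = 5.15e-06). Zfp42 (Rex1), a zinc finger marker of the naive state, fell from 114 and 185 CPM to 6.33 and 7.98. Fgf4, the FGF ligand that stem cells secrete, was at 108 and 140 CPM at day 0 and 0.3 and 0.0366 at day 2, so that only 1 of its 2 day 2 libraries was above the level of 3 counts. All 15 were already lower at day 1. Nanog fell again between days 1 and 2 (log2 change -2.78, adjusted p = 0.00074), whereas Klf4 read 4.96 and 6.28 CPM on day 1 and 5.47 and 5.86 on day 2 and was not called between those days.

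Of the broader pluripotency genes, 12 of 14 were lower and 0 higher. Pou5f1, the POU factor also called Oct4, lies on chromosome 17 (35506018 to 35510772) and read 537 and 330 CPM at day 0, 55.1 and 109 on day 1 and 3.78 and 4.8 on day 2 (log2 change -6.67, SE 0.44, adjusted p = 1.33e-05). L1td1, an RNA-binding protein of stem cells, fell from 1238 and 1424 CPM to 10.4 and 10.3 (log2 change -7.02, SE 0.23). Tdgf1 (Cripto), the co-receptor of Nodal, read 417 and 496 CPM at day 0 and 0.562 and 0.256 at day 2 (1120-fold lower). The 2 members that were not called were Sox2 and Lin28a. Sox2, a factor shared by stem cells and neural progenitors, was at 151 and 221 CPM at day 0 and 172 and 142 at day 2, and these libraries overlapped. Its log2 change was -0.26 (SE 0.2, adjusted p = 0.327), and 0.05 without day 0 replicate 2. Lin28a, which blocks maturation of let-7 microRNAs, read 926 and 915 CPM at day 0 and 1062 and 1050 at day 2 (log2 change 0.18, SE 0.2, adjusted p = 0.491). Near-identical copies of Pou5f1 and Nanog exist elsewhere in the genome, and the handling of reads shared with them was not stated in the labels or notes.

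Genes of the formative and primed epiblast, the states that follow the naive one, fell in the main: 9 of 14 were lower and 2 were higher. Otx2, a homeobox factor of the epiblast and later of the forebrain, fell from 25.3 and 22.2 CPM to 0.15 and 0.183. Dnmt3b, a de novo DNA methyltransferase, fell from 715 and 523 CPM to 86.6 and 90.4 (log2 change -2.82, SE 0.18, adjusted p = 1.2e-05). The members that rose were Sox3 (4.24 and 1.15 CPM to 19.6 and 23.7) and Sall2 (73.1 and 42.3 CPM to 209 and 218), both also expressed in neural tissue. Nodal signaling genes followed the same direction, with 7 of 11 lower. The Nodal feedback inhibitor Lefty2 read 126.4 and 154.7 CPM at day 0, 0.539 and 0.188 on day 1 and 0.225 and 0.146 on day 2. Lefty1 went from 90 and 95.1 CPM to 0.637 and 0.513. The 2 higher members were the activin receptor Acvr2b and the protease Furin.

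FGF and ERK feedback genes, which rise and fall with ERK activity, were lower in 11 of 16 cases and higher in 4. Spry4, an inhibitor of receptor tyrosine kinase signaling, was at 152 and 154 CPM at day 0, 21.8 and 17.2 on day 1 and 1.5 and 1.06 on day 2 (log2 change -6.91, SE 0.26, adjusted p = 1.88e-06). The ETS factors moved with it: Etv4 fell from 139 and 114 CPM to 1.39 and 0.989, and Etv5 from 203 and 200 to 19.4 and 15.5. The 4 that rose were the receptors Fgfr1, Fgfr2 and Fgfr3 and the ligand Fgf15. Fgfr3 read 3.9 and 2.55 CPM at day 0 and 60.2 and 48.9 at day 2 (log2 change 4.06, SE 0.41, adjusted p = 0.000102). Fgf15 had 10.9 and 11.4 CPM at day 0, 0.216 and 0.471 on day 1 and 48.2 and 41.6 on day 2, so that the day 1 libraries lay below and the day 2 libraries above those of day 0. Without day 2 replicate 1 the log2 change of Fgf15 was 1.87 and it was not called. Fgfr1 was not called without day 0 replicate 2 (log2 change 0.59) or day 2 replicate 2 (0.72).

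The Id genes, inhibitors of basic helix-loop-helix factors and common readouts of BMP signals, were all called lower at day 1 than at day 0 (4 of 4: Id1, Id2, Id3 and Id4). Id3 was at 6.65 and 4.33 CPM at day 0, 0.791 and 2.6 on day 1 and 89 and 114 on day 2, which gave a log2 change of 4.19 (SE 0.43, adjusted p = 0.000109) from day 0 and 5.88 (adjusted p = 0.00016) from day 1. Id2 read 52.4 and 42.1, then 13.3 and 13.3, then 129 and 141 CPM, and it too was called lower at day 1 and higher at day 2. Id1 had 16.8 and 15.4 CPM at day 0 and 24.3 and 32 at day 2, did not overlap and was not called (adjusted p = 0.0702), though 8 of the alternatives called it higher, DESeq2 among them. Of 16 BMP and Id genes, 9 were higher, 0 lower and 7 not called. With the GC offset 10 were higher and 1 lower. The ligand Bmp7 rose from 4.14 and 1.78 CPM to 45.8 and 50.2, and the BMP antagonist Nog from 0.746 and 0.34 to 11.7 and 5.86. Among 20 Wnt genes 8 were higher and 5 lower. Nkd1, a feedback inhibitor, and the receptor Fzd2 rose, and Lef1, Wnt3 and T, the mesoderm factor Brachyury, fell.

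**Figure D2:**
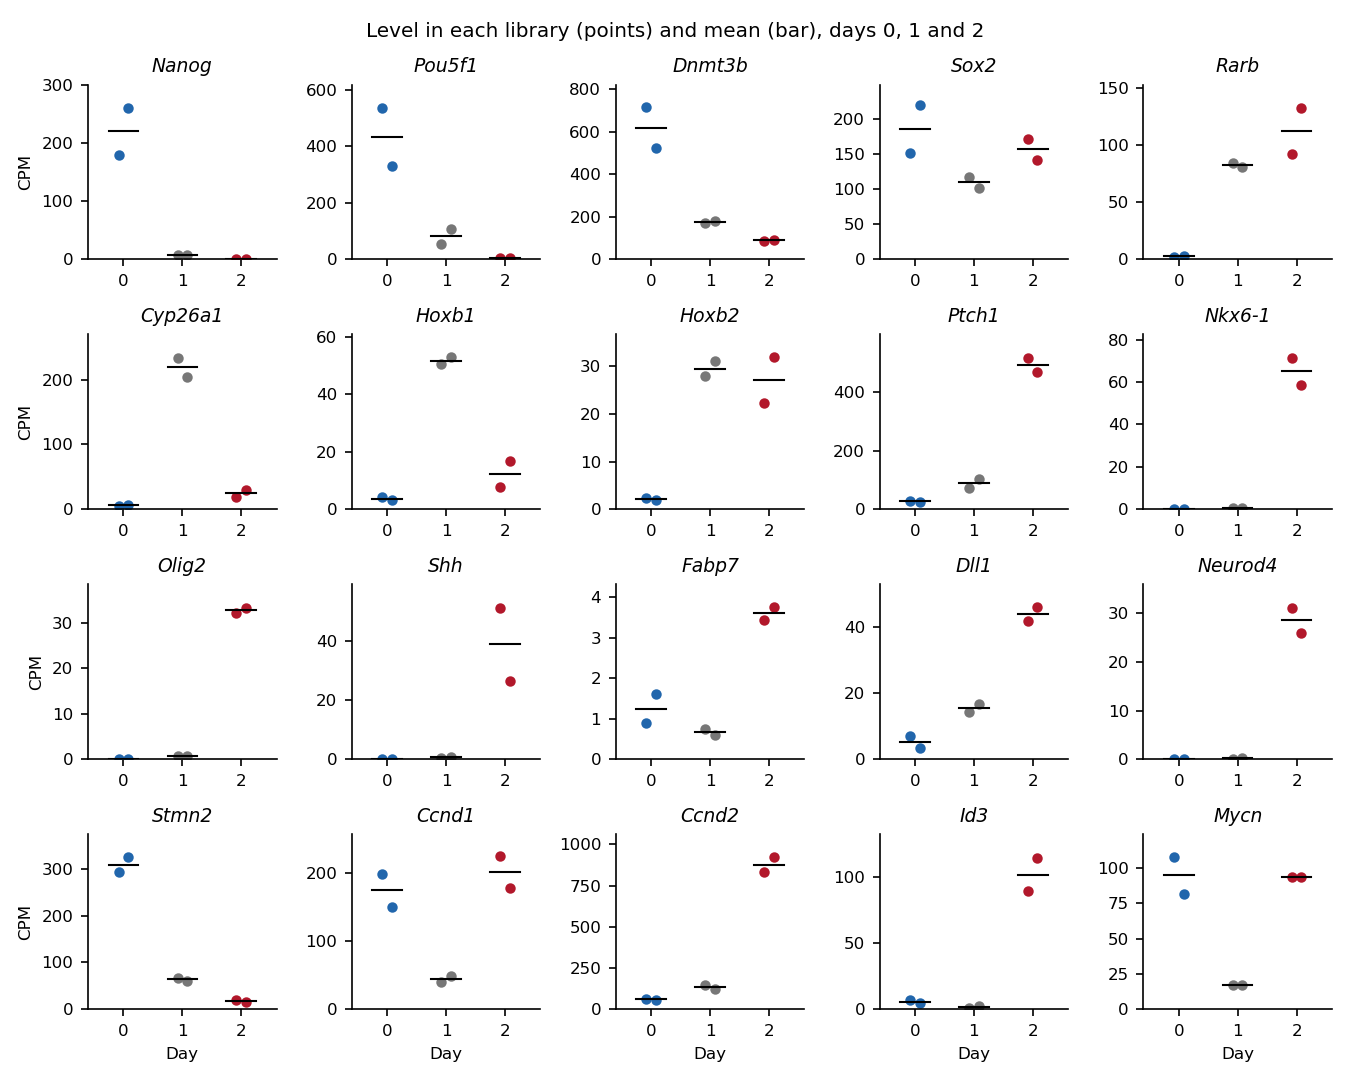
CPM of 20 genes in each library of days 0, 1 and 2 (x axis, day; y axis, CPM, each panel with its own scale), with 1 point per library. Nanog and Pou5f1 step down over the days, Rarb is high on days 1 and 2, Cyp26a1 and Hoxb1 are highest on day 1, Nkx6-1 and Olig2 are near 0 until day 2, and Ccnd1, Id3 and Mycn are lowest on day 1.

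Genes that bind, sense or break down RA rose in the main, with 13 of 19 higher and 2 lower (median log2 change 1.98), but they differed in whether the day 1 level held. The receptor Rarb was at 2.41 and 3.27 CPM at day 0, 84.5 and 80.6 on day 1 and 92.1 and 133 on day 2 (log2 change 5.30, SE 0.35, adjusted p = 1.34e-05), and was not called between days 1 and 2. Cyp26a1 was at 5.7 and 6.24 CPM at day 0, peaked at 234 and 204 at day 1 and stood at 19.4 and 30.3 at day 2. It was higher than at day 0 (log2 change 2.04, SE 0.28, adjusted p = 0.000538) and lower than at day 1 (log2 change -3.15, adjusted p = 0.00019). These are the 2 promoters shown above that hold a DR5 element. Stra6, the membrane receptor for retinol uptake, read 2.31 and 1.02 CPM at day 0, 57.3 and 99.9 on day 1 and 115 and 171 on day 2.

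The cellular RA-binding proteins had unlike time courses. Crabp2, which delivers RA to nuclear receptors, rose by day 1, from 41.9 and 32.5 CPM to 388 and 389, and reached 579 and 701 at day 2 (17-fold above day 0). Crabp1 read 10.5 and 12.7 CPM at day 0 and 11.5 and 17 at day 1, was not called there, and reached 341 and 244 at day 2 (log2 change 4.64, SE 0.29, adjusted p = 1.02e-05). The receptors also went opposite ways: Rarg fell from 156 and 115 CPM to 13.4 and 15.8 (log2 change -3.23, SE 0.24, adjusted p = 2.31e-05), Rxrg fell from 7.36 and 2.04 to 0.112 and 0.293, and Rara was not called.

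Of 17 RA target genes outside the Hox clusters, 10 were higher, 5 lower and 2 not called. The TALE homeobox factor Meis1, a partner of Hox proteins, rose from 10 and 9.47 CPM to 124.7 and 135, with 48.1 and 45.2 at day 1. Nr2f1 and Nr2f2, the COUP orphan receptors, rose from 0.713 and 1.1 CPM to 50.8 and 61.6 and from 1.36 and 1.91 to 69.6 and 66.7. Zfp703, a transcriptional co-repressor, was at 1.76 and 1.83 CPM at day 0, 89.1 and 99.6 on day 1 and 53.7 and 74.4 on day 2. Stra8, the RA-induced gatekeeper of meiosis, read 58 and 89.9 CPM at day 0, 1431 and 1322 on day 1 and 97.1 and 241 on day 2. Its day 2 libraries were both above day 0 but far apart, and the gene was not called (log2 change 1.18, SE 0.46, adjusted p = 0.0682). It was called higher without day 2 replicate 1 (log2 change 1.68). The 5 lower genes were Cdx1, Cdx2, Gbx2, Wt1 and Plxdc2. Without day 0 replicate 1, day 2 replicate 1 or day 2 replicate 2 only 2 genes of the list were lower.

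The listed 3′ Hox genes, from groups 1 to 4 that pattern the hindbrain, were all higher at day 2, 11 of 11. All 11 were already higher at day 1 (median log2 change at day 2, 3.64). Hoxb2 held its day 1 level: 2.41 and 1.87 CPM at day 0, 27.9 and 31.2 on day 1 and 22.2 and 31.9 on day 2. Hoxd3 rose further, from 0.0679 and 0.17 CPM through 2.44 and 2.13 to 27.7 and 28.7 (log2 change 7.88, SE 0.37, adjusted p = 3.31e-06). Hoxb1, the group 1 gene of the HoxB cluster, came down again, from 50.5 and 52.9 CPM at day 1 to 7.6 and 17 at day 2 against 4.11 and 3.14 at day 0 (log2 change 1.74, SE 0.47, adjusted p = 0.0164). The call of Hoxb1 was lost without day 0 replicate 2 (log2 change 1.58) and without day 2 replicate 2 (1.06).

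Among Hox genes of groups 5 to 13, which mark spinal cord and trunk, 19 of 27 listed genes passed the filter, and of these 9 were higher, 2 lower and 8 not called. The 9 were Hoxa5, Hoxb5 to Hoxb9, Hoxc5, Hoxc8 and Hoxd8. Hoxb8 rose from 0.339 and 0.722 CPM to 8.13 and 18.7, and Hoxc5 from 0.509 and 0.34 to 10.15 and 25.45. In all 9 of these genes day 2 replicate 2 was above day 2 replicate 1, and the level summed over groups 5 to 13 was 54.4 CPM in day 2 replicate 1 and 125.96 in day 2 replicate 2. Without day 2 replicate 2 the list had 5 higher genes, and without either day 2 library it had 0 lower genes, in place of Hoxa9 and Hoxa10. Many Hox transcripts overlap antisense transcripts, and no strand setting of the counting was stated in the labels or notes.

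**Figure D3:**
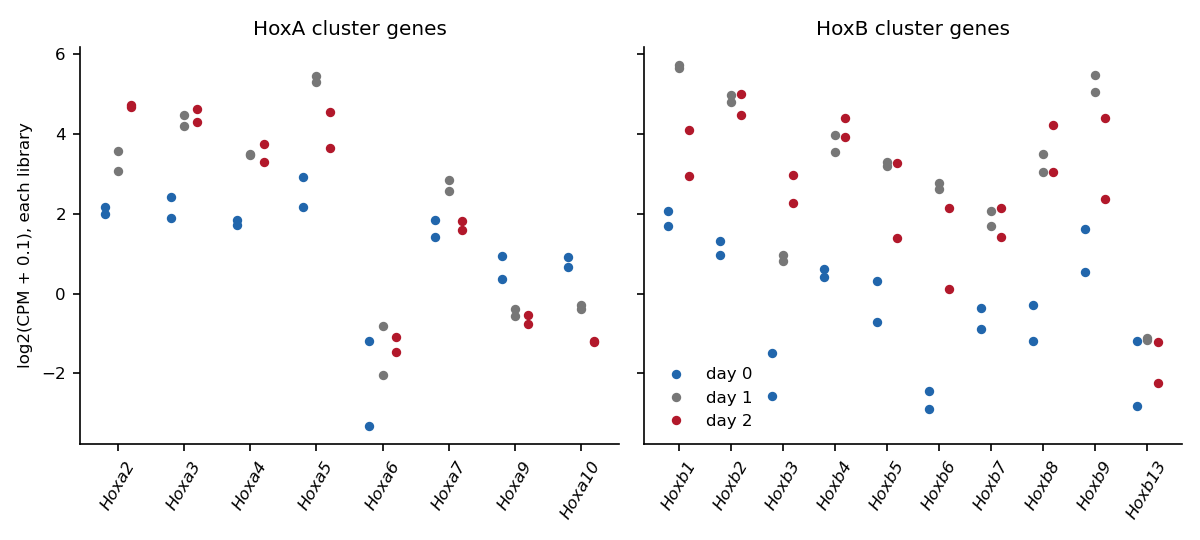
Levels of HoxA and HoxB genes reported here in cluster order (x axis) as log2(CPM + 0.1) (y axis) in each library of days 0, 1 and 2. Day 1 and day 2 libraries lie above day 0 for the group 1 to 5 genes shown, and Hoxb1 is lower on day 2 than on day 1.

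Hindbrain factors outside the Hox clusters rose in 13 of 17 cases, with 0 lower. With the GC offset 15 were higher and 1 lower. Zfp503, a zinc finger factor, rose from 1.49 and 1.53 to 56.7 and 48 CPM. The hindbrain segment gene Egr2 read at most 1.78 CPM in the libraries of days 0 and 2 and was not called. Of 21 forebrain and midbrain factors only 12 passed the filter, and 4 were higher and 3 lower. Without day 2 replicate 2 there were 2 higher, and without day 2 replicate 1 there was 1 lower.

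Hedgehog feedback targets, the genes that GLI factors switch on, rose in 8 of 11 cases, with 0 lower. Ptch1, the hedgehog receptor that is itself a target, was at 28.3 and 25.9 CPM at day 0, 73.8 and 104 on day 1 and 519 and 469 on day 2 (log2 change 4.17, SE 0.2, adjusted p = 3.82e-06). Gli1, the amplifying transcription factor, lagged behind it: 6.58 and 3.44 CPM at day 0, 5.5 and 9.67 on day 1 and 77 and 77.7 on day 2, called from day 0 to day 2 but not to day 1. Hhip, a decoy receptor, rose from 0.339 and 0.637 CPM through 9.17 and 7.12 to 20.2 and 18.5. The 3 not called were Foxf2, Ccnd1 and Mycn. Of 14 receptors and mediators 11 were higher and 0 lower. They included Smo (67.3 and 41.9 CPM to 185 and 197) and the co-receptors Gas1 (4.24 and 4.88 to 31.2 and 43.9), Cdon and Boc. The list had 7 higher genes when day 2 replicate 2 was left out. Rab34, a small GTPase of the primary cilium, was called higher but not once the GC offset was fitted. With that offset the feedback targets had 6 higher and 0 lower genes, and the receptors and mediators 8 higher and 1 lower.

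Floor plate genes rose by day 2 in 10 of 12 cases, with 0 lower and a median log2 change of 4.40, and 3 of them were already called higher at day 1. Shh itself, the ligand of the pathway, read 0.102 and 0.17 CPM at day 0, 0.431 and 0.847 on day 1 and 51.2 and 26.6 on day 2 (log2 change 8.14, SE 0.71, adjusted p = 4.91e-05). Foxa2, the forkhead factor upstream of Shh in the floor plate, rose from 1.59 and 2 CPM through 8.7 and 9.26 to 106 and 62.9. The guidance ligand Ntn1 stood at 25.8 and 23.4 CPM at day 0 and 20.2 and 26.9 at day 1, was not called between those days, and reached 566 and 439 at day 2 (20.2-fold). Slit1, a repellent ligand, rose from 0.475 and 0.637 CPM to 92.1 and 70.1. In each of these 4 genes day 2 replicate 1 was above replicate 2. Over the whole list the summed level was 255 and 200 CPM at day 0 and 1248 and 882 at day 2. With the GC offset 10 genes of the list were higher and 1 lower.

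Ventral progenitor factors rose in 9 of 11 cases. Nkx6-1, the homeobox factor of the ventral progenitor domains, lies on chromosome 5 (101658139 to 101664996) and read 0.271 and 0.212 CPM at day 0, 0.539 and 0.785 on day 1 and 71.3 and 58.7 on day 2 (259-fold higher, log2 change 8.01, SE 0.29, adjusted p = 1.88e-06). Olig2, which marks motor neuron progenitors, had 0.0339 and 0.0425 CPM at day 0, 0.719 and 0.628 on day 1 and 32.3 and 33.4 on day 2 (adjusted p = 3.02e-05). Nkx2-2, of the domain next to the floor plate, reached only 2.285 and 1.025 CPM. Dbx1 and Sim1 had 0 counts in both day 0 libraries. Against the level of 3 counts per library Dbx1 was at least 32.5-fold higher and Sim1 at least 30.6-fold higher at day 2. Dorsal and intermediate factors also moved: 9 of 16 were higher and 3 lower. Pax6 rose from 5.6 and 5.69 CPM to 63.1 and 130.6, and Wnt1 from 0.238 and 0 to 6.48 and 5.82. Among the lower genes, Zic5 fell from 38.6 and 35.4 CPM to 11.5 and 13.1, and Gsx1 read 1.05 and 1.1 CPM at day 0 and 0.0749 and 0.0366 at day 2 (adjusted p = 0.005). The level summed over the list was 318 and 336 CPM at day 0 and 188 and 268 at day 2, lower on the later day although more members rose than fell.

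Neural progenitor genes rose in 18 of 21 cases, with a median log2 change of 2.97, and the 6 genes set as defining markers, Sox1, Pax6, Nes, Fabp7, Pou3f2 and Hes5, were all called higher. Sox1, a Sox factor of neural progenitors, read 19 and 16.9 CPM at day 0, 46.1 and 36.4 on day 1 and 89 and 89.4 on day 2 (log2 change 2.30, SE 0.23, adjusted p = 9.21e-05). Pou3f2 (Brn2) was at 0.407 and 0.68 CPM at day 0, 1.65 and 1.22 on day 1 and 49.3 and 45.6 on day 2. Sox21 and Msi1, an RNA-binding protein of progenitors, rose from 1.63 and 2.25 CPM to 50.6 and 45.9 and from 16 and 12.5 to 139 and 138. Nestin, the intermediate filament of neural stem cells, was the marker with the least margin: Nes read 222 and 153 CPM at day 0, 92.5 and 84.5 on day 1 and 330 and 303 on day 2. Its log2 change was 0.74 (SE 0.19, adjusted p = 0.0131), and it was not called with the GC offset, nor without day 0 replicate 2 (log2 change 0.51), day 2 replicate 1 (0.66) or day 2 replicate 2 (0.81). The 1 lower member was the glutamate transporter Slc1a3, whose call was lost without day 2 replicate 2 (log2 change -0.80).

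Notch genes, through which progenitors hold each other back from becoming neurons, rose in 15 of 20 cases, with 0 lower. Of all genes 21.3% were called higher. With the GC offset 13 Notch genes were higher and 2 lower. The ligand Dll1 read 6.85 and 3.23 CPM at day 0, 14.2 and 16.8 on day 1 and 41.7 and 45.8 on day 2. The effectors Hes5 and Hey1 were not called at day 1 and rose by day 2, from 0.0679 and 0.212 CPM to 2.81 and 5.38 and from 1.39 and 2.38 to 19.6 and 13.1. Without either day 2 library the list had 9 higher genes.

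Proneural and early neuron factors rose in 14 of 21 cases, with 1 lower. Neurod4, a basic helix-loop-helix factor, had 0.0339 and 0.0425 CPM at day 0, 0.108 and 0.282 on day 1 and 31.1 and 25.9 on day 2 (adjusted p = 2.66e-06). Neurog2 read 0 and 0.17 CPM at day 0 and 6.59 and 12.9 at day 2. Sox4 rose from 64.8 and 68.8 CPM to 334 and 303. The lower gene was Ebf1, at 13.1 and 11.1 CPM at day 0 and 1.05 and 1.32 at day 2, while its paralogs Ebf2 and Ebf3 rose. Without day 0 replicate 2 there were 2 lower genes in the list.

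Genes of neuron structure did not rise as a group: 7 of 21 were higher, 6 lower and 8 not called, with a median log2 change of 0.15. Dcx, the microtubule protein of migrating neurons, rose from 0.78 and 0.849 CPM to 8.46 and 11.35, and Elavl4 from 3.49 and 4.5 to 24.5 and 20.1. Stmn2, a tubulin-binding protein of growth cones, went the other way, from 293 and 325 CPM at day 0 through 67.4 and 60.3 at day 1 to 20.2 and 15.4 at day 2 (log2 change -4.13, SE 0.19, adjusted p = 3.21e-06). The neurofilament genes Nefl and Nefh and the internexin gene Ina also fell. Without day 2 replicate 1 there were 3 lower genes. The summed level of the list was 689.7 and 685.5 CPM at day 0 and 396 and 399 at day 2, and Stmn2 alone had a mean of 309 CPM at day 0 and 17.8 at day 2. Motor and serotonergic factors were higher in 10 of 15 cases and lower in 1. Isl1 reached 3.82 and 4.39 CPM, Mnx1, with 0 counts at day 0, was at least 21.6-fold higher, and Chat was not called. The lower gene was Tph2, the serotonin-synthesizing enzyme, which was not called without day 2 replicate 2 (log2 change -1.70).

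**Figure D4:**
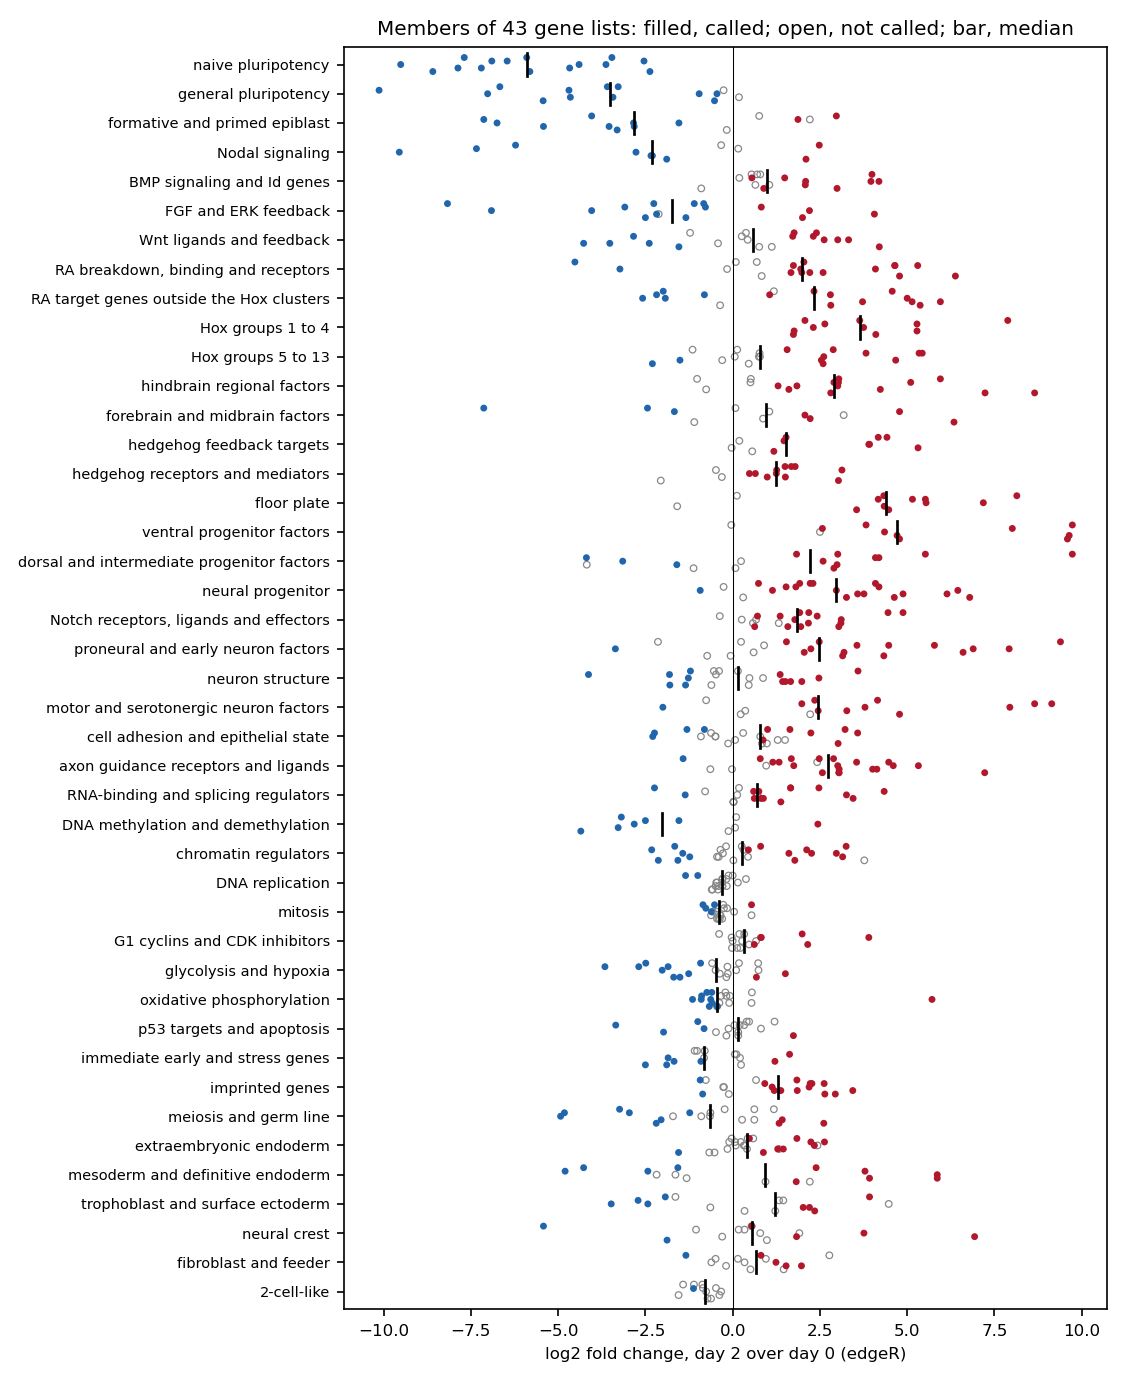
Log2 fold change, day 2 over day 0, of the tested members of each of the 43 gene lists, with filled points for called and open points for not called genes and a bar at the list median. The naive pluripotency members all lie below 0, the Hox group 1 to 4 members all lie above 0, and the neuron structure members lie on both sides of 0.

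The cadherins changed places in part. Cdh2, the N-cadherin of neuroepithelium, was at 20.4 and 23.3 CPM at day 0, 55.9 and 48.6 on day 1 and 265 and 261 on day 2 (log2 change 3.58, SE 0.16, adjusted p = 3.21e-06). Cdh1, the E-cadherin of epithelia and stem cell colonies, fell from 747 and 624 CPM to 324 and 234 (log2 change -1.31, SE 0.19, adjusted p = 0.000831). By FPKM, which scales for gene length, the levels at day 2 were 64.4 and 65.3 for Cdh2 and 56.2 and 41.5 for Cdh1. Epcam, an epithelial adhesion molecule, and Esrp1, an epithelial splicing regulator, fell, while Zeb1 and Zeb2, repressors of epithelial genes, rose. Of 23 adhesion genes 7 were higher, 4 lower and 12 not called, and the GC offset raised the number lower to 7.

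Axon guidance receptors and ligands rose in 19 of 24 cases, with 1 lower and a median log2 change of 2.73. Plxna2, a semaphorin receptor, read 6.14 and 7.52 CPM at day 0, 98 and 91.9 on day 1 and 262 and 287 on day 2 (log2 change 5.32, SE 0.19, adjusted p = 1.88e-06). Robo2, a Slit receptor, rose from 2.34 and 2.72 CPM to 59.7 and 53.4, and the semaphorin Sema3c from 8.89 and 10.9 to 129 and 105. Unc5b, a netrin receptor, was the lower member. Its call was lost without day 2 replicate 1 (log2 change -1.24), and 2 genes were lower without day 0 replicate 2. RNA-binding and splicing regulators were higher in 12 of 21 cases. The neural splicing factors Srrm4 (1.09 and 0.892 CPM to 11.6 and 10.5) and Nova2 (3.97 and 3.91 to 23 and 21.1) were among them.

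Enzymes of DNA methylation turned over. Of 10 genes 6 were lower and 1 was higher. Beside Dnmt3b, the catalytically inactive cofactor Dnmt3l fell from 169 and 148 CPM at day 0 to 15.6 and 17.4 at day 2, with 96.8 and 114 at day 1, where it was not called. The oxidases that remove methylation went both ways: Tet1 fell from 610 and 976 CPM to 87.8 and 87.9 (log2 change -3.19, SE 0.25, adjusted p = 3.03e-05) and Tet2 from 106 and 207 to 26.2 and 29.5. Tet3 rose from 26.2 and 19.5 CPM to 124 and 126.9 (log2 change 2.44, SE 0.23, adjusted p = 6.8e-05). The 2 day 0 libraries of Tet1 and Tet2 were far apart, but both lay above day 2.

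Of 25 chromatin regulators 9 were higher and 6 lower, and the Polycomb members went both ways. Subunits and partners of the complex that methylates histone H3 fell: Eed (248 and 362 CPM to 114 and 114), Suz12 (375 and 550 to 199 and 201), Mtf2 (474 and 745 to 197 and 192) and Jarid2 (527 and 649 to 131.1 and 140). Phc1, of the other Polycomb complex, fell from 524 and 435 CPM to 92.8 and 101. Other members of that complex rose, among them Cbx2 (50.6 and 40.1 CPM to 138 and 142), Cbx8 and Bmi1 (27.1 and 32.2 to 126.9 and 134). Hells, a chromatin remodeler, fell from 897 and 1270 CPM to 374 and 363.

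Few genes of DNA replication and mitosis were called in the main fit, though their median log2 changes were -0.30 and -0.39. Of 19 DNA replication genes 0 were higher and 2 lower, and of 20 mitosis genes 1 was higher and 4 lower, against 41.3% of all genes called in either direction. Leaving out day 2 replicate 2, the counts lower were 1 and 0, and with the GC offset they were 5 and 11. The mitosis list had 1 lower gene without day 0 replicate 2 and 0 when day 2 replicate 1 was left out, and the 1 higher gene was not called in either case or when day 2 replicate 2 was left out. It had 2 higher genes without day 0 replicate 1. Ccne1, the cyclin of S phase entry, fell from 453 and 483 CPM to 181 and 188. Of 17 G1 cyclins and CDK inhibitors 6 were higher and 0 lower. The D cyclins differed. Ccnd2 rose from 63.4 and 53.2 CPM through 144 and 122 to 830 and 922 (log2 change 3.90, SE 0.23, adjusted p = 7.78e-06). Ccnd1 dipped at day 1 and came back: 199 and 150 CPM at day 0, 39.1 and 49.1 on day 1 and 224 and 178 on day 2, not called between days 0 and 2. By FPKM, Ccnd2 went from 7.9 and 6.02 to 110 and 124.6, and Ccnd1 from 38.8 and 26.6 to 46.7 and 44.6, so that on a scale per length Ccnd2 was below Ccnd1 at day 0 and above it at day 2.

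Among genes of energy metabolism, most of those called were lower, where 20.1% of all genes tested were called lower and 21.3% higher. Glycolysis and hypoxia genes were lower in 9 of 21 cases and higher in 2, Vegfa and Gapdh, and oxidative phosphorylation genes were lower in 9 of 19 and higher in 1. The glucose transporter Slc2a3 fell from 1405 and 1447 CPM to 407 and 392, Pfkp, an isoform of phosphofructokinase, from 47.1 and 81.2 to 4.16 and 6.08, and Pdk1, a kinase that holds back pyruvate dehydrogenase, from 234 and 325 to 47.8 and 39.9. Ldha fell from 860 and 584 CPM to 311 and 202 and stood at 107 and 147 at day 1. Vegfa, a target of hypoxia, rose from 23.2 and 17 CPM to 60.8 and 54.9. Gapdh read 11.7 and 10.5 CPM at day 0 and 17.1 and 18.8 at day 2 (log2 change 0.68, adjusted p = 0.0326). It was not called when any 1 of these 4 libraries was left out, and its deposited FPKM went from 326 and 208 on day 0 to 238 and 0 on day 2. Without day 0 replicate 2 or either day 2 library 1 glycolysis gene was higher. Without day 0 replicate 2 only 4 oxidative phosphorylation genes were lower, and without either day 2 library 3 were.

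Which changes persisted past day 1 was read from the day 1 and day 2 contrasts, both against the same day 0 libraries, so the count is by rule and its size is no test. At day 1, 2015 genes were higher (12%) and 1498 lower (8.91%) than at day 0. Of these, 1547 higher genes (76.8% of the day 1 calls, 9.2% of genes tested) and 1134 lower genes (75.7%, 6.75% of genes tested) were called in the same direction at day 2. They made up 43.3% of the genes higher at day 2 and 33.6% of the lower ones. With the GC offset these shares were 57.8% of 4030 higher and 47.2% of 4492 lower genes. Between days 1 and 2 directly, 1623 genes were higher (9.65%) and 1679 lower (9.99%). Of the persisting higher genes 425 rose again between the days, 31 came down and 1091 were not called. Of the persisting lower genes 265 fell again, 7 came back up and 862 were not called.

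Some persisting genes grew over both days. Ednrb, the endothelin receptor of progenitors and neural crest, read 1.12 and 1.91 CPM at day 0, 17.8 and 14.2 on day 1 and 192 and 177 on day 2 (122-fold above day 0). Fbn2, a fibrillin of the extracellular matrix, rose from 8.35 and 8.28 CPM through 49.1 and 65.2 to 263 and 249, and Zbtb16, a zinc finger factor, from 0.984 and 0.892 through 10.7 and 13.5 to 74.9 and 87.7. Slc7a7, an amino acid transporter subunit, fell from 188 and 183 CPM through 50.6 and 51.1 to 8.43 and 7.47. The count of persisting lower genes depended on the setting: it fell from 1134 to 611 when day 0 replicate 2 was left out, to 686 for day 1 replicate 2 and to 632 and 577 for the day 2 libraries, and it was 2120 with the GC offset. Persisting higher genes were 984 without day 0 replicate 2, 959 and 965 without either day 2 library and 2329 with the GC offset.

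**Figure D5:**
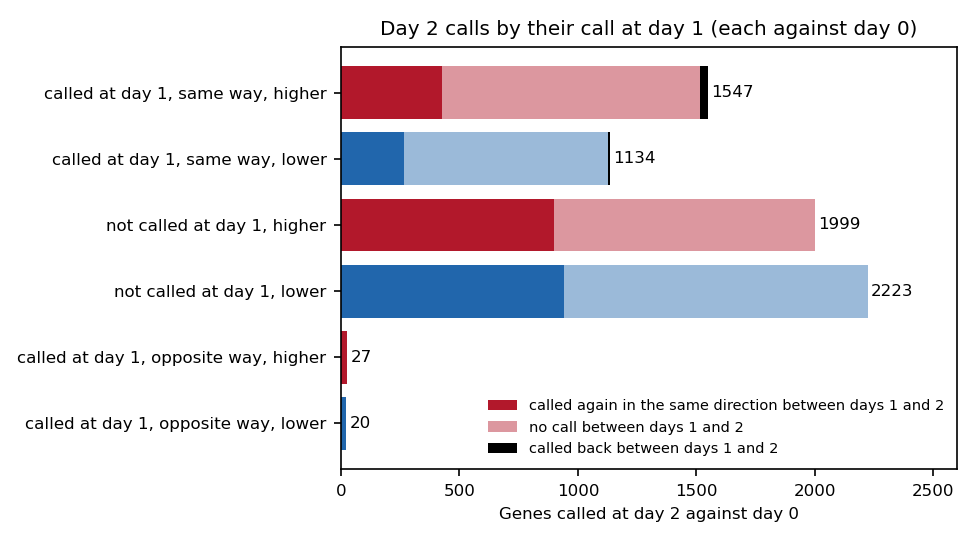
Numbers of genes called higher and lower at day 2 against day 0 (bars), divided by their day 1 against day 0 call and, within it, by the direct comparison of days 1 and 2. Of the 3573 higher genes 1547 were already called at day 1, 1999 were not and 27 had been called lower. Of the 3377 lower genes the numbers were 1134, 2223 and 20.

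Genes not called at day 1 numbered 1999 among the higher calls (55.9%) and 2223 among the lower calls (65.8%). For higher genes this majority did not hold with the GC offset, where 2329 persisted and 1701 did not, nor with the replicate block and the GC offset (2136 and 1694). A gene not called at day 1 may still have moved by then, and of these 900 and 943 were called between days 1 and 2 directly. Gpc3, a glypican that binds morphogens at the cell surface, was at 53 and 52.7 CPM at day 0 and 59.3 and 48.8 at day 1, then reached 666 and 511 at day 2. Frem1, of the extracellular matrix, had 0.984 and 0.849, then 1.8 and 1.88, then 67.8 and 40.1 CPM. Car2, a carbonic anhydrase, read 882 and 636 CPM at day 0, 575 and 527 on day 1 and 101 and 109 on day 2, and Col6a5, a collagen chain, 13.4 and 17, 19.5 and 19.1, and 0.187 and 0.0732.

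Opposite calls on the 2 days were few, 27 genes lower at day 1 and higher at day 2 (0.756% of the higher calls) and 20 the other way (0.592%). Beside Id3 and Id2 the first group held Nrarp, a feedback inhibitor of Notch (3.9 and 2.72, 1.58 and 1.1, 15.7 and 14.5 CPM), and the semaphorin co-receptor Nrp2 (18.1 and 17.7, 7.51 and 6.75, 67 and 48.9 CPM). The second held the cytokine Il33, at 20.8 and 23.7 CPM at day 0, 47.3 and 32.9 on day 1 and 2.4 and 2.67 on day 2. A further 448 genes higher and 337 lower at day 1 were not called at day 2, and 188 and 108 of them were called back in the day 2 to day 1 contrast. Mycn, singled out after its values were seen, was at 108 and 81.5 CPM at day 0, 17.4 and 17.1 on day 1 and 94 and 93.6 on day 2.

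Markers of other cell types were measured in the same libraries, in which fewer cells of a type and less RNA per cell cannot be told apart. Over all genes tested 21.3% were called higher and 20.1% lower. The shares called in the neural crest, fibroblast and extraembryonic endoderm lists were near the 41.3% of all genes, and are no result about their members. For neural crest, Sox10 did not pass the filter, Foxd3 was lower and Tfap2a was not called, and the list had 4 of 14 genes higher and 2 lower, with 2 higher without day 0 replicate 1 or day 2 replicate 2. Its summed level was 92.7 and 94.5 CPM at day 0 and 270 and 257 at day 2, most of it Ednrb, which neural progenitors also express. For mesoderm, T fell to 0.749 and 0.403 CPM, Mixl1 and Kdr were not called and Mesp1 and Tbx6 did not pass the filter. The list had 6 of 15 genes higher and 4 lower and a summed level of 57 and 36.5 CPM at day 0 and 112 and 91.2 at day 2. For fibroblasts, Col1a1 was lower, Col1a2, Col3a1 and Thy1 were not called, 4 of 14 listed genes were higher and 1 lower, and the summed level was 882 and 970 CPM at day 0 and 1021 and 919 at day 2. The list had 1 higher and 0 lower genes without day 2 replicate 1, and 0 lower genes when day 2 replicate 2 was left out. For extraembryonic endoderm, Gata4 (30.4 and 22.3 CPM at day 0, 27.7 and 24.3 at day 2), Gata6 and Sox7 were not called, Sox17 rose from 3.97 and 3.14 to 8.95 and 8.68, and Afp and Ttr read at most 1.24 CPM. The list sum was 3536 and 2702 CPM at day 0 and 6363 and 5654 at day 2, with 8 of 24 genes higher and 1 lower, among them the basement membrane genes Col4a1, Col4a2 and Lama1, which other epithelia share. The call of Sox17 was lost without day 0 replicate 2 (log2 change 1.14), day 2 replicate 1 (1.25) or day 2 replicate 2 (1.32), and without 1 of these libraries 4 or 5 genes of the list were higher. The part of such cells in the changes above was not tested.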

How the data were processed

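RNA was sequenced from poly(A)-selected libraries, per the labels' protocols. The submitters' processing notes list TopHat2 2.0.4, HTSeq 0.6.1, Cufflinks 2.1.1, bcl2fastq 1.8.3, CASAVA and limma, with mm10 and GRCm38 as builds. Neither annotation nor strand setting was stated there or in the labels. The authors deposited read counts per gene (38197 genes, 104 with fractional values, used as estimated counts and rounded), FPKM values, which scale for gene length, and log2 values from voom. Counts were tested with edgeR 4.0.16 in R 4.3.3 (TMM factors, filterByExpr with a minimum count of 10, group means over the 8 libraries of days 0 to 3, quasi-likelihood F test, adjusted p threshold 0.05). The SE is the log2 change divided by the square root of F. limma 3.58.1 on log2(FPKM + 1) and on the deposited log2 values, and DESeq2 1.42.0, were alternatives. FPKM values enter those alternatives and the comparisons of levels between genes.

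Genes were drawn for naming by rule: the 10 largest changes in each direction (5 CPM or more on the higher day) and a panel. Further sources were up to 6 called members of each of 43 lists with the smallest adjusted p, and members against their list. Up to 6 genes of each class of time course and direction were drawn too. The 317 genes that met these rules are the named genes of the counts below, though not all of them appear in the text. Defining cell type markers could be named as well. Egr2, Foxf2, Rara, Chat, Dbx1, Mycn, Id4, Hoxa5, Hoxb5, Hoxb9 and Hoxc8 were singled out after their values were seen. Some genes of the lists are counted but not reported here by name. The members and lists were chosen with earlier results of these data known. In counts simulated with the fitted spread of these libraries, the test recovered 33.96% of 106 genes given a log2 change of 1. It recovered 75.82% of 91 genes given a log2 change of 2. A gene not called may therefore still have changed. The share missed among the real changes was not tested. Promoter windows and gene positions are on GRCm38, and 92.8% of genes tested had a GC value.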

Additional observations from a re-analysis of the deposited data

How the results depend on the processing

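Against 3573 genes higher and 3377 lower, of which 1547 and 1134 persisted, counts that moved by over 1.5 times were these. A minimum log2 change of 1 gave 1463 and 998, with 294 and 164 persisting. With log2(FPKM + 1) and no filter on low values they were 2112 and 2007, with 618 and 471 persisting. Persisting lower genes were 640 with log2(FPKM + 1), 563 with log2(FPKM + 0.1), 2120 with the GC offset and 1925 with the block and the GC offset, and persisting higher genes were 2329 with the GC offset. Leaving out each of the 6 libraries of days 0 to 2 in turn gave 2213 to 3961 higher, 1554 to 3541 lower, 959 to 1373 persisting higher and 577 to 916 persisting lower. Where this leaves 1 library on a day, that library is assumed to vary like the others. The deposited log2 values and log2(FPKM + 1) moved the median over all genes to 0.146 and 0.12.

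The labels give the libraries of each day replicate numbers. Same-numbered libraries of days 0 and 2 deviated from their group means with a correlation of -0.319, and those of days 0 and 1 with -0.816, so the numbers were not taken as pairs. With the replicate number as a block 3120 genes were higher and 2823 lower, with 755 persisting lower. A crossed pairing of the day 0 and day 2 libraries alone, chosen after seeing the data, gave 4419 and 3839.

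Of 311 named genes that were called, 262 kept their call in every fit that left out a library, 301 under the block, 306 with the GC offset and 220 with log2(FPKM + 1) and no filter. Signs turned for Sox2 and Gata6, which were not called: Sox2 was at -0.51 to 0.05 over the fits that left out a library, and Gata6 was lower with the GC offset (-0.21) and with the block and the GC offset (-0.22). Gapdh, called higher by edgeR (0.68), was lower with log2(FPKM + 1), filtered or not (-4.08), and with log2(FPKM + 0.1) (-5.74), and its FPKM is listed at 0 in day 2 replicate 2. For the other results the cause was not tested.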

Other observations

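Imprinted genes, which are expressed from 1 parental allele and include several growth regulators, were higher at day 2 in 13 of 20 cases and lower in 2, with a median log2 change of 1.28 against 0.017 over all genes tested and 21.3% of all genes called higher. Peg3, a zinc finger factor, read 296 and 301 CPM at day 0, 551 and 462 on day 1 and 2025 and 1682 on day 2 (log2 change 2.62, SE 0.2, edgeR adjusted p = 2.52e-05). Plagl1 was at 12.8 and 13.3 CPM at day 0, 9.38 and 9.95 on day 1 and 97.1 and 105 on day 2. Igf2, a growth factor, rose from 57 and 63.8 CPM through 196 and 194 to 308 and 259, and Ndn, the growth suppressor necdin, from 11.9 and 11.6 to 71.3 and 76.7. The lower members were Rian (505 and 515 CPM to 273 and 295) and Snrpn (240 and 193 CPM to 124.9 and 105). The counts do not tell the parental alleles apart.

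Genes of meiosis and the germ line were lower in 7 of 19 cases and higher in 3, against 20.1% of all genes lower and 21.3% higher. The synaptonemal complex gene Sycp3 read 16.9 and 26.8 CPM at day 0, 16 and 11 on day 1 and 0.712 and 0.732 on day 2 (30.4-fold lower), and the recombinase gene Dmc1 10.6 and 18.5, 16.2 and 13.8, and 1.39 and 1.72. The meiotic cohesin gene Rec8 went the other way, from 18.5 and 11.6 CPM through 110 and 186 to 63.9 and 122. The other higher members, Rhox6 and Rhox9, were not called without day 0 replicate 2 or without either day 2 library, and without day 0 replicate 2 or day 2 replicate 2 the list had 1 higher gene.

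Among the genes of largest change, the matrix gene Vit had 0 and 0.0425 CPM at day 0 and 51.8 and 36.2 at day 2, and Foxb1 0.102 and 0 at day 0 and 17.5 and 16.5 at day 2. Cckar, a cholecystokinin receptor, was at 0 CPM in both day 1 libraries and at 9.1 and 4.21 at day 2. Bmp3, with 0 counts at day 0, was at least 54.8-fold higher. Pou4f2, a POU factor of sensory neurons, and Mep1b, a metalloprotease subunit, had 0 counts in both day 2 libraries and were at least 89.6-fold and 69.4-fold lower.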
